A study of Homo sapiens with 4 samples.

Results

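Inter-alpha-trypsin inhibitor (ITI) and the asialoglycoprotein receptor are hepatocyte products, and their 7 genes were compared between Huh7 cells carrying a short hairpin RNA against NUP210 and Huh7 cells carrying a control hairpin. The members were the rows whose gene symbol was AMBP, ITIH1, ITIH2, ITIH3, ITIH4, ASGR1 or ASGR2, and each of the 7 symbols matched 1 of the 20226 genes in the deposited tables. Huh7 is an established line of human hepatocyte-derived carcinoma cells. The shNUP210 group has 2 RNA-seq libraries and the shCon group has 2; the labels call both groups untreated and give shCon the genotype wild type. NUP210 encodes a membrane glycoprotein of the nuclear pore complex. The labels name neither the number of hairpins or clones nor separate cultures behind the libraries, so p-values cover only the variation among these 4 libraries, which can be technical.

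ITI is built from a light chain and heavy chains made in the liver. AMBP encodes a precursor that is cut into alpha-1-microglobulin, a heme-binding lipocalin, and bikunin, a Kunitz-type protease inhibitor that carries a chondroitin sulfate chain. The heavy chains of ITIH1, ITIH2 and ITIH3 are joined to bikunin through that chain and can be passed on to hyaluronan, whereas ITIH4 encodes a related plasma protein that lacks the site for this linkage. The asialoglycoprotein receptor is a hepatocyte lectin of 2 subunits, ASGR1 (the major one) and ASGR2 (the minor one), that binds glycoproteins with exposed galactose and carries them into clathrin-coated vesicles.

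All 7 genes had lower values in both shNUP210 libraries than in either shCon library. So did 14.3% of all tested genes, and 29.4% of those with a mean of 100 TPM or more. Of the 6 members that reached the expression filter of the test, 1, ASGR2, passed the test as lower, beside 1.07% of all tested genes. Values are TPM, an abundance scaled by transcript length and by the total of the library that keeps no read depth, so the depth is unknown and no counting intervals are given. The test was limma on log2(TPM + 1) over the 10140 genes that reached 5 TPM in 2 or more libraries, and a gene is called when its Benjamini-Hochberg adjusted p over all genes tested is under 0.05. Called higher were 1.79% of those genes. The libraries themselves listed 14405 to 14564 genes at 1 TPM or more in shNUP210 cells and 13675 to 13920 in shCon cells. NUP210, the targeted gene, was at 10.1 and 9.85 TPM in shNUP210 cells, against 32.82 and 27.28 TPM in shCon cells, a log2 fold change of -1.49 (SE 0.24, limma adjusted p = 0.0432).

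**Figure D1:**
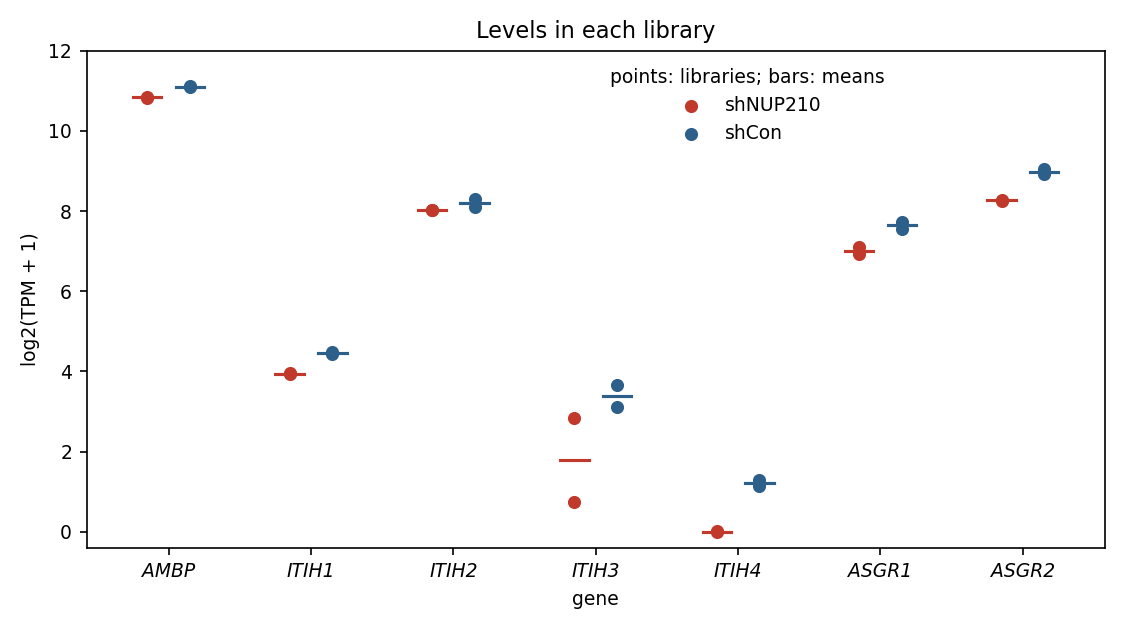
Levels of the 7 genes, as log2(TPM + 1) on the vertical axis, with 1 point per library and a bar at the mean of the 2 libraries of each group (shNUP210 red, shCon blue). For each gene both shNUP210 points lie below both shCon points, as they do for 14.3% of all tested genes. The pair of shNUP210 points for ITIH3 (0.68 and 6.16 TPM) is the widest.

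The deposited levels place the light-chain gene far above the heavy chains. AMBP (GRCh38 chromosome 9, 114060127 to 114078472, minus strand) was at 1836.47 and 1822.03 TPM in shNUP210 cells, against 2173.04 and 2226.0 TPM in shCon cells. It ranked between 66 and 71 among the 20226 genes of each library. Both knockdown libraries lay below both controls, at 83.2% of the control mean. The log2 fold change was -0.27 (SE 0.06, 95% interval -0.41 to -0.12), and it did not pass the test (limma adjusted p = 0.0783).

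Among the heavy chains, ITIH2 (chromosome 10, 7703269 to 7749520, plus strand) was the one of high abundance. It was at 261.61 and 258.18 TPM in shNUP210 cells, against 312.52 and 275.1 TPM in shCon cells. The knockdown libraries were close to each other and just below the lower control. The log2 fold change of -0.17 had a 95% interval of -0.44 to 0.09 (limma adjusted p = 0.361), so neither no change nor a fall of that size can be set aside at this spread.

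ITIH1, ITIH3 and ITIH4 form a cluster on chromosome 3, with ITIH1 (52777592 to 52792068) and ITIH3 (52794768 to 52809009) on the plus strand and ITIH4 (52812975 to 52831479) on the minus strand; 2699 bases separate ITIH1 from ITIH3 and 3965 separate ITIH3 from ITIH4. ITIH1 was at 14.46 and 14.3 TPM in shNUP210 cells, against 20.45 and 21.39 TPM in shCon cells. Its 2 groups were each tight and did not overlap, with a log2 fold change of -0.51 (95% interval -1.07 to 0.05, limma adjusted p = 0.234). ITIH3 was at 0.68 and 6.16 TPM in shNUP210 cells, against 7.67 and 11.71 TPM in shCon cells. The 2 knockdown libraries of ITIH3 disagreed, and the second was close to the lower control. The log2 fold change of -1.60 (95% interval -3.45 to 0.26, limma adjusted p = 0.254) was -0.55 without shNUP210 replicate 1 and -2.64 without shNUP210 replicate 2.

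ITIH4 did not reach the expression filter and has no test at that setting. It was listed at 0.0 and 0.01 TPM in shNUP210 cells, against 1.2 and 1.46 TPM in shCon cells, so all 4 values were close to the lower end of the scale. With looser filters its log2 fold change of -1.21 had a limma adjusted p of 0.202 (1 TPM in 2 libraries, unadjusted p = 0.0296) and 0.21 (no filter, unadjusted p = 0.0125). Its exons share 4021 bases with AC006254.1, a protein-coding gene of the same strand listed at 0.6 and 0.21 TPM in shNUP210 cells and 0.0 and 0.18 TPM in shCon cells, and reads of the 2 genes could be split between them. A further 228 exon bases are shared with the antisense gene ITIH4-AS1, and no strand-aware counting is stated in the labels. For the other 6 members the annotation has no overlapping gene.

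Of the 7 genes, 4 matched the RefSeq promoter table (GRCh38.p14), and the 3 with a single entry are shown. ITIH1 had 3 entries and was left out for that reason. The 3 shown are the abundant light-chain gene and the 2 least abundant heavy-chain genes. Each line gives the 250 bases before the RefSeq start, 5′ to 3′ on the strand of the gene, with matches to the motifs below in capitals. GENCODE release 29 starts these genes at other positions, 114078472 for AMBP, 52794768 for ITIH3 and 52831479 for ITIH4. By that annotation the whole ITIH4 window lies within the gene. Most of the AMBP window does too, with both of its marked matches, as does the TATAA of ITIH3. The marked letters are therefore upstream of the RefSeq start only.
AMBP: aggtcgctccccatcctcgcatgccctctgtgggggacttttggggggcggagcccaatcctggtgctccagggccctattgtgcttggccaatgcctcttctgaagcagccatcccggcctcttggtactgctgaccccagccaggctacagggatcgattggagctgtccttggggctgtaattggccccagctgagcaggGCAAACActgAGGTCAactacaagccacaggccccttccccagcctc
ITIH3: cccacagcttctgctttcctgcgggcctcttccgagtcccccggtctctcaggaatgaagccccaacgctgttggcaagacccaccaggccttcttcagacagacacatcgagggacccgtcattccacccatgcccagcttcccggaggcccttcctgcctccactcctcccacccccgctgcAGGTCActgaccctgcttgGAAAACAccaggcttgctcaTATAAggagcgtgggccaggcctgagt
ITIH4: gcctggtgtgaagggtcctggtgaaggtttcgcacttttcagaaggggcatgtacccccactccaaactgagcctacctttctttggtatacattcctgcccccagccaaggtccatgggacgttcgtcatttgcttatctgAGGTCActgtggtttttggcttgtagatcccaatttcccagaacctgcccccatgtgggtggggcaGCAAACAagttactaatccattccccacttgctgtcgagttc

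The windows lie at chr9:114078301-114078550 (minus strand), chr3:52794546-52794795 (plus strand) and chr3:52830673-52830922 (minus strand). On both strands, 5 motifs of liver or general promoters were searched by their letters: TATAA (the core of a TATA box), CAAAGT (the core of an HNF4 site), AGGTCA (a nuclear receptor half-site), TTGCNNAA (C/EBP) and TGTTTNC (FOXA). All 3 windows held AGGTCA, which occurs in 12.1% of the 35116 windows of the table, and all 3 held TGTTTNC on the opposite strand, which occurs in 15.5%. TATAA was found in the ITIH3 window, starting 27 bases before the RefSeq start, and occurs in 18.9% of windows. The letters of the HNF4 and C/EBP motifs (10.3% and 9.05% of windows) were not in these 3 windows. These are matches of letters and no measurement of binding.

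Summed, the 4 heavy chains stood at 276.8 and 278.7 TPM in shNUP210 cells, against 341.8 and 309.7 TPM in shCon cells. ITIH2 made up 94.5% and 92.7% of that sum in shNUP210 cells and 91.4% and 88.8% in shCon cells, with the knockdown libraries above both controls. ITIH1 contributed 5.22% and 5.13% in shNUP210 cells and 5.98% and 6.91% in shCon cells. The ratio of AMBP to the heavy-chain sum was 6.64 and 6.54 in shNUP210 cells and 6.36 and 7.19 in shCon cells. Those ratios overlapped between the groups, and no shift of light against heavy chains showed beyond the spread of these libraries.

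**Figure D2:**
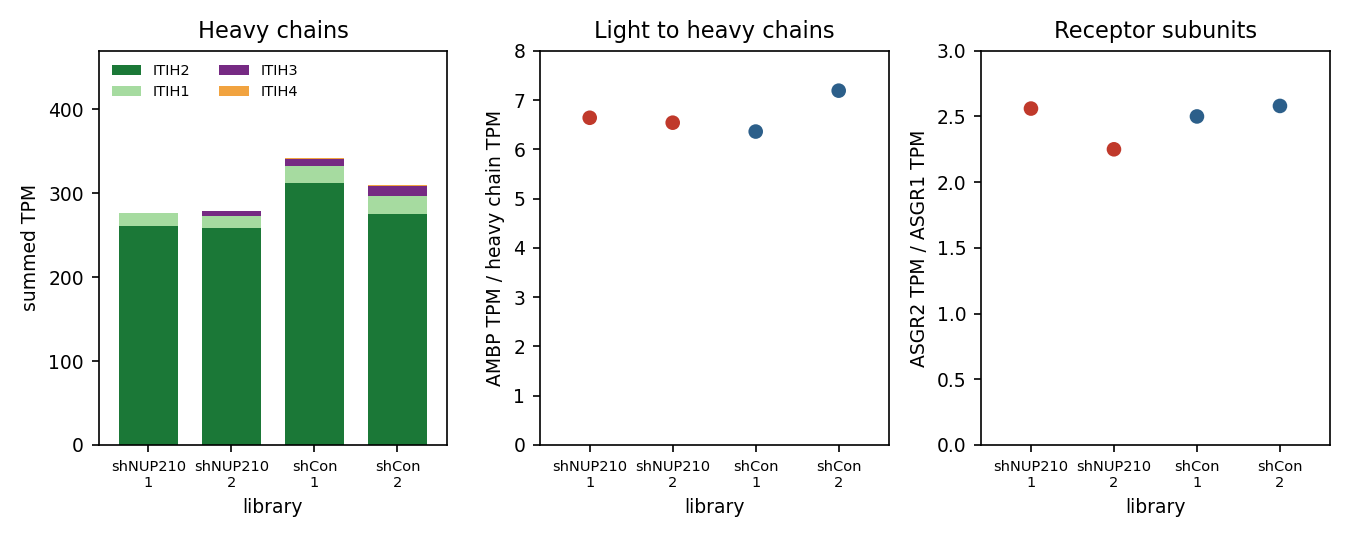
Left, TPM of the 4 heavy-chain genes stacked for each library; middle, AMBP TPM divided by the heavy-chain sum; right, ASGR2 TPM divided by ASGR1 TPM (shNUP210 libraries red and left of the shCon libraries, blue). ITIH2 fills most of every bar, and both ratios overlap between the groups, at 6.36 to 7.19 and at 2.25 to 2.58 over the 4 libraries.

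Among the members above 100 TPM, the receptor genes had the most negative fold changes. ASGR2 (chromosome 17, 7101322 to 7115700, minus strand) was at 309.21 and 305.89 TPM in shNUP210 cells, against 528.76 and 483.95 TPM in shCon cells. The 2 knockdown libraries were nearly equal and far below the lower control. ASGR2 fell to 60.7% of the control mean, a log2 fold change of -0.72 (SE 0.09, 95% interval -0.94 to -0.49, limma adjusted p = 0.0296). The call ended with a filter of 1 TPM in 2 libraries, with no filter, without the mean-variance trend, with a replicate block (limma adjusted p = 0.0592) and without any 1 library, where adjusted p was 0.132 to 0.15; over all 16 alternatives it ranged from 0.011 to 0.15.

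ASGR1 (chromosome 17, 7173431 to 7179564, minus strand), 57730 bases from ASGR2 on the same strand, was at 120.99 and 136.11 TPM in shNUP210 cells, against 211.7 and 187.27 TPM in shCon cells. Its groups did not overlap, and the knockdown mean was 64.4% of the control mean. The log2 fold change of -0.63 (SE 0.13, 95% interval -0.95 to -0.31) did not pass (limma adjusted p = 0.0682). ASGR2 stood at 2.56 and 2.25 times the level of ASGR1 in shNUP210 cells and at 2.5 and 2.58 times in shCon cells. The fold changes of the 2 subunits differed by -0.09 on the log2 scale, within the pooled SD of 0.10 between libraries; with 2 libraries a group an exact permutation test cannot give a p below 0.33, so none was run.

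**Figure D3:**
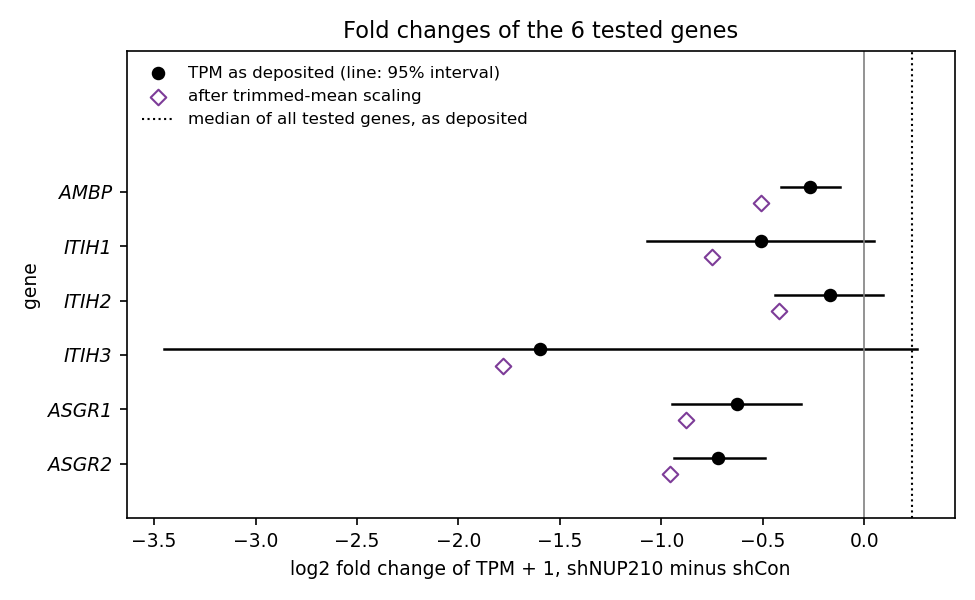
Log2 fold change of TPM + 1, shNUP210 minus shCon, for the 6 tested genes, as deposited (black, with the 95% interval of limma) and after trimmed-mean scaling (open diamonds), with the median of all tested genes as a dotted line. All 6 points lie below 0, from -0.17 for ITIH2 to -1.60 for ITIH3, and the scaling moves each further down.

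Set beside all genes, the fold changes of the 6 tested members had a median of -0.57, against 0.23 over the 10140 tested genes and 0.05 over the 1432 of them with a mean of 100 TPM or more. All 6 were below 0, as were 31.1% of all tested genes and 44.6% of those with a mean of 100 TPM or more. All 6 also had groups that did not overlap, with shNUP210 lower; 14.3% of all tested genes and 29.4% of the abundant ones did, and 42.9% of all tested genes had groups that did not overlap with shNUP210 higher. Of the abundant genes 4.4% were called lower. The members were chosen with earlier results of these data known, so these counts describe them and test nothing. The level of the dotted median depends on the scaling: with a trimmed mean it moved to 0.002, and the calls over all genes turned to 76 higher and 252 lower, against 181 higher and 109 lower as deposited. AMBP (log2 fold change -0.51, limma adjusted p = 0.0289) and ASGR1 (-0.88, adjusted p = 0.032) then passed as well as ASGR2, so 3 of 6 members were called lower beside 2.49% of all genes. Median-ratio and upper-quartile scaling called the same 3, beside 2.47% and 2.75% of all genes. Quantile normalization called ASGR2 alone, beside 1.16%, and left AMBP at -0.04 (limma adjusted p = 0.714).

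**Figure D4:**
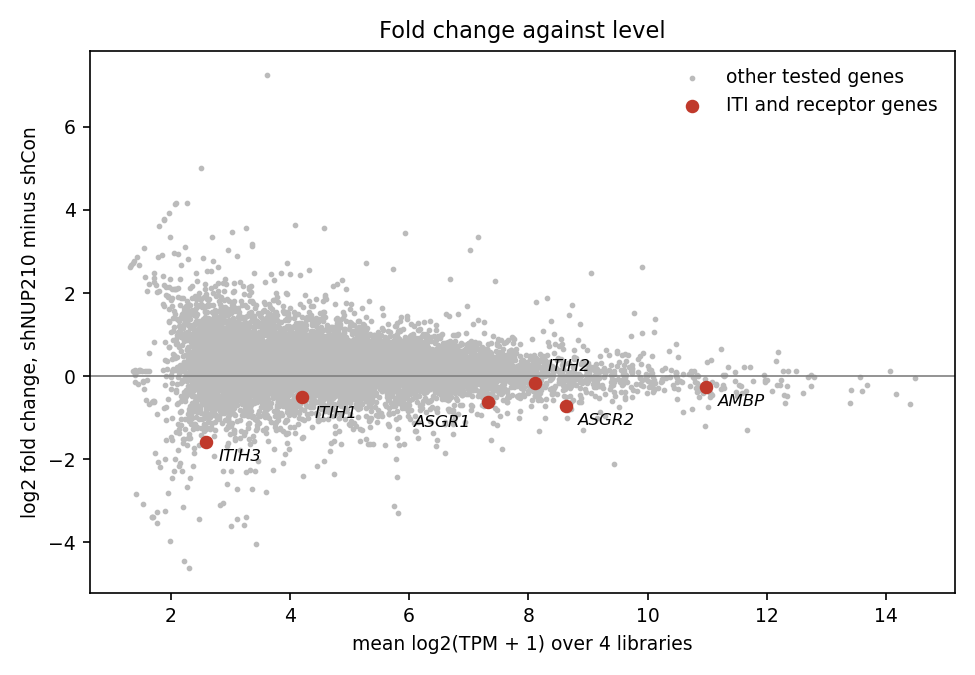
Log2 fold change, shNUP210 minus shCon, against mean log2(TPM + 1) over the 4 libraries for all 10140 tested genes (grey), with the 6 tested genes in red. AMBP stands among the most abundant genes, and all 6 red points lie below 0 at every level.

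Genes of related pathways, relatives of the members and liver-enriched transcription factors were counted from 11 lists. In these lists 105 genes were tested and 7 were called (2 higher, 5 lower), 6.67% beside 2.86% of all tested genes. After trimmed-mean scaling 2 were called higher and 9 lower. Each of the 7 lost its call in 4 to 9 of the 16 alternatives. Of the 10 tested genes for making, binding and breaking down hyaluronan, the polymer that takes up ITI heavy chains, 1 rose and 0 fell, with a list median of 0.49. The riser was VCAN, encoding the hyaluronan-binding proteoglycan versican, at 25.94 and 24.98 TPM in shNUP210 cells, against 3.36 and 5.82 TPM in shCon cells (log2 fold change 2.28, limma adjusted p = 0.0379); its exons share 453 bases with VCAN-AS1. That call was lost in 9 alternatives, among them quantile normalization, the replicate block (limma adjusted p = 0.0712) and leaving out any library (0.129 to 0.17). HAS3, a hyaluronan synthase, was at 46.86 and 47.25 TPM in shNUP210 cells and 38.32 and 41.29 TPM in shCon cells and did not pass (limma adjusted p = 0.412).

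Of 13 tested genes that build chondroitin sulfate, the chain that links bikunin to its heavy chains, 0 rose and 1 fell, with a median of 0.24. That gene was CHPF, encoding a chondroitin polymerizing factor, at 40.24 and 47.86 TPM in shNUP210 cells, against 87.84 and 94.92 TPM in shCon cells (log2 fold change -1.04, limma adjusted p = 0.0422). CHST13, a chondroitin sulfotransferase, was at 125.62 and 118.28 TPM in shNUP210 cells and 195.06 and 184.21 TPM in shCon cells, just outside the threshold (limma adjusted p = 0.0519). UXS1 of the same list was as close and went the other way, at 45.39 and 52.85 TPM in shNUP210 cells and 17.31 and 23.37 TPM in shCon cells (limma adjusted p = 0.0533). CHPF shares 125 exon bases with TMEM198, which itself had a log2 fold change of -1.22. The CHPF call was lost in 8 alternatives, with the replicate block (limma adjusted p = 0.0713) and without any 1 library among them. Without any 1 library its log2 fold change was -1.16 to -0.92. After trimmed-mean scaling 2 genes of this list were lower.

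The lipocalins, relatives of alpha-1-microglobulin, had 2 of 4 tested members lower and 0 higher, with a median of -0.90, and all 4 were lower after trimmed-mean scaling. RBP4, which carries retinol in plasma, stood at 458.07 and 435.05 TPM in shNUP210 cells, against 856.26 and 884.1 TPM in shCon cells (log2 fold change -0.96, limma adjusted p = 0.00987). ORM1, encoding an acute phase glycoprotein, was at 166.28 and 179.87 TPM in shNUP210 cells, against 297.59 and 324.62 TPM in shCon cells (log2 fold change -0.84, limma adjusted p = 0.0296), and its reads may be split with the near-identical ORM2. Without any 1 library both calls were lost (limma adjusted p = 0.0681 to 0.11 for RBP4 and 0.115 to 0.156 for ORM1), and with the replicate block that of ORM1 was (0.0566). Both knockdown libraries of each gene lay below both controls, and their fold changes were more negative than that of AMBP; that difference was not tested. The Kunitz-type inhibitors, the relatives of bikunin, had 0 of 5 tested genes called, beside 2.86% of all tested genes, with a median of -0.19. The heavy-chain relatives ITIH5 and ITIH6 were listed at 0.35 TPM or less in every library.

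On the receptor side, 0 of 4 tested genes in the list of lectin and scavenger receptors were called, with a median of 0.26. These were SCARB1 and SCARB2 of the scavenger receptor family, with CLEC16A and COLEC11, which encode an intracellular protein and a secreted lectin rather than uptake receptors. CLEC10A, COLEC12, MRC2, PLA2R1 and LY75 did not reach the filter, so the count says nothing about them and covers no lectin receptor. In the list of other endocytic receptors 0 of 11 tested genes were called, with a median of 0.27. Called were also 0 of 19 genes of clathrin-coated vesicles and 0 of 16 genes that add or remove galactose and sialic acid on N-glycans, with medians of 0.19 and 0.06. Of all tested genes 2.86% were called, so counts of 0 in lists this short are near that share and do not show that these genes were unchanged. Of the 19 clathrin genes, 10 were higher and 1 lower with no overlap, beside 42.9% and 14.3% of all tested genes.

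Of 5 proprotein convertases, 1 rose and 0 fell, with a median of 0.42. The gene was PCSK7, at 117.15 and 139.71 TPM in shNUP210 cells, against 22.13 and 19.21 TPM in shCon cells (log2 fold change 2.58, limma adjusted p = 0.00651). PCSK7 shares 446 exon bases with TAGLN on the opposite strand, and TAGLN itself had a log2 fold change of 3.34, so the level of PCSK7 is uncertain. The share of TAGLN reads in the PCSK7 values was not tested. The PCSK7 call was lost in 4 alternatives, 3 of which left out a library. Without any 1 library its log2 fold change was 2.45 to 2.70. Of 18 tested liver-enriched transcription factors, 0 rose and 2 fell, with a median of 0.12. CEBPA was at 346.4 and 331.28 TPM in shNUP210 cells, against 528.37 and 514.85 TPM in shCon cells (log2 fold change -0.62, limma adjusted p = 0.0334), and it shares exon bases with antisense transcripts. CEBPB was at 96.06 and 100.12 TPM in shNUP210 cells, against 184.47 and 162.67 TPM in shCon cells (log2 fold change -0.81, limma adjusted p = 0.0421). Both calls were lost in 8 alternatives each, with the replicate block (limma adjusted p = 0.0682 for CEBPA and 0.0805 for CEBPB) and without any 1 library (0.14 to 0.162) among them, and 3 genes of this list were lower after trimmed-mean scaling. HNF4A, a factor that drives hepatocyte genes, was at 140.22 and 166.04 TPM in shNUP210 cells, against 128.54 and 118.41 TPM in shCon cells. It was higher with no overlap, as were 42.9% of all tested genes, and did not pass (log2 fold change 0.30, limma adjusted p = 0.24). The median fold change of all tested genes was close to that value, at 0.23.

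**Figure D5:**
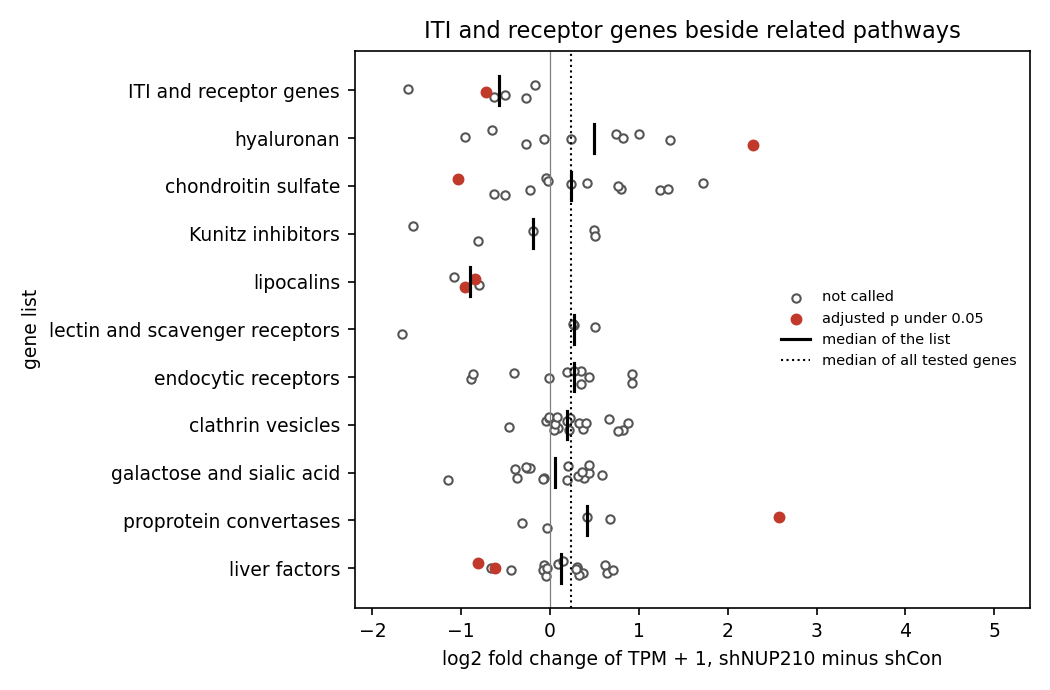
Log2 fold change of TPM + 1, shNUP210 minus shCon, of the tested genes of each list, 1 point per gene, with called genes in red, the median of each list as a black bar and the median of all tested genes as a dotted line; points are spread vertically for legibility. The ITI and receptor genes and the lipocalins have medians of -0.57 and -0.90, furthest left of the median of all genes at 0.23. Kunitz inhibitors (-0.19), galactose and sialic acid genes (0.06), liver factors (0.12) and clathrin vesicles (0.19) lie left of it too.

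The label of hepatocyte-derived cells was checked against 12 hepatocyte markers, all of which were tested, with 4 lower and 0 higher, beside 1.07% of all tested genes and 4.4% of the abundant ones called lower. The 4 were APOA1, APOA2, TF and SERPINA1, with log2 fold changes of -1.31, -0.67, -0.78 and -0.73. Of the 8 that did not pass, TTR had a log2 fold change of 0.56 (limma adjusted p = 0.0501) and ALB one of 0.01, and the other 6 lay between -0.30 and 0.30. The summed level of the 12 was 32394.4 and 33049.4 TPM in shNUP210 cells and 46446.4 and 48023.2 TPM in shCon cells, most of it from APOA2.

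Cholangiocyte markers, 4 of 5 listed, summed to 242.6 to 274.8 TPM in shNUP210 cells and 143.0 to 164.4 TPM in shCon cells. Most of that difference was KRT19, at 192.32 and 182.42 TPM in shNUP210 cells and 75.05 and 58.08 TPM in shCon cells (limma adjusted p = 0.0215). EPCAM went the other way, at 19.22 and 16.9 TPM in shNUP210 cells and 32.86 and 32.49 TPM in shCon cells (log2 fold change -0.82, limma adjusted p = 0.0917). SOX9 overlapped between the groups, and CFTR was listed at 0 in 1 library of each. Fibroblast markers, 6 of 7 listed, summed to 19.48 to 37.31 TPM in shNUP210 cells and 11.92 to 16.50 TPM in shCon cells, with COL1A1 as the main difference (18.92 and 7.55 TPM in shNUP210 cells, 1.25 and 3.8 TPM in shCon cells), PDGFRB overlapping and PDGFRA at 0.6 and 0.25 TPM in shNUP210 cells and 1.27 and 1.29 TPM in shCon cells. Macrophage markers, 4 of 6 listed, summed to 6.30 to 22.29 TPM in shNUP210 cells and 27.70 to 35.24 TPM in shCon cells, with CD68 as the main difference (13.85 and 2.48 TPM in shNUP210 cells, 30.66 and 17.85 TPM in shCon cells) and CD14 overlapping; none of these fibroblast or macrophage genes passed. THY1, MARCO and CSF1R were listed at 0 in 3 libraries each, as was STAB2, the 1 endothelial marker of 6 that was listed. The part of these shifts in the lower levels of the ITI and receptor genes was not tested. All libraries are labelled as the Huh7 line, and fewer Huh7 cells with a transcript cannot be told apart from less of it per cell.

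Over the 4 libraries, the tested genes nearest in profile to each member were found by the root mean square difference of log2(TPM + 1) values centred on their mean. For ASGR2 they were DDC (difference 0.0183) and GLTSCR2 (0.0275), which had log2 fold changes of -0.75 and -0.76. For ASGR1 they were ARSA (0.0114) and RP11-834C11.4 (0.0329), for AMBP they were EIF6 (0.017) and PPP1R14B (0.0171), for ITIH1 SLC37A4 (0.0133) and RPL28 (0.0142), and for ITIH2 MSTO1 (0.0049) and TRIM27 (0.0142). ITIH3 had more distant ones, RP11-732A19.8 at 0.15 and MTCP1 at 0.219. With 4 libraries in 2 groups the measure rests on few values, and it says only that the values moved alike.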

How the data were processed

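Per the labels' protocols, Trizol-extracted total RNA of Huh7 cells went into Illumina TruSeq RNA libraries. The authors deposited 1 table per library, with TPM for 20226 genes; the unit was read from column totals of 999992.7 to 999997.8. Trimmomatic, STAR, RSEM and DESeq, with the hg38 build, are named in the submitters' processing notes, without versions or roles. TPM depends on all other genes of a library, and no depth is kept. Groups came from the sample titles.

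TPM as deposited were tested with limma 3.58.1 (R 4.3.3), as log2(TPM + 1), in genes of at least 5 TPM in 2 libraries, with eBayes following the mean-variance trend, two-sided, Benjamini-Hochberg adjusted over all genes tested; the fit was tested on simulated data. Fold changes on this scale understate changes of low genes. Positions and overlaps are from GENCODE 29. Of 174 genes in the 11 lists, 147 matched. The rule named the members, NUP210, up to 3 called genes per list and direction, and 2 nearest profiles; other genes named were chosen after their values were seen. The members, lists and settings were chosen with earlier results of these data known. Alternatives were 4 scalings, 3 filters, 2 pseudocounts, no trend, a robust prior, a replicate block and leaving out each library.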

Additional observations from a re-analysis of the deposited data

How the results depend on the processing

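The 6 tested genes kept a negative fold change in every alternative that tested them, but only the 4 scalings could have reversed a sign. The groups of each gene did not overlap, so leaving out a library or changing the pseudocount keeps the sign. The filters, the trend, the prior and the block leave the estimate as it is. ITIH4 was tested only under 2 looser filters, which do not alter its fold change. With trimmed-mean, median-ratio or upper-quartile scaling, 3 members were called lower (ASGR2, ASGR1 and AMBP): AMBP stood at -0.51, -0.51 and -0.56 and ASGR1 at -0.88, -0.87 and -0.93 on the log2 scale, and 11 list genes were called under each. With a filter of 1 TPM in 2 libraries, no filter, no mean-variance trend or the replicate block, 0 members were called, with ASGR2 at -0.72 each time (limma adjusted p = 0.0578, 0.115, 0.145 and 0.0592), and 57, 15, 0 and 63 of all genes and 2, 1, 0 and 2 list genes were called. The limma fit without the trend still had 2290 genes at an unadjusted p under 0.05, 3 of them members. Without 1 library, 0 members, 4 to 27 of all genes and 0 to 1 list genes were called, and ASGR2 ranged from -0.78 to -0.65. ITIH4 stood at -1.21 with a pseudocount of 1 TPM, and at -3.76 and -1.85 with 0.1 and 0.5 TPM. The replicate numbers mark no shared culture in the labels, and same-numbered libraries deviated together with a correlation of 0.0231 over 10140 genes, so the block rests on a number alone. The cause of these shifts was not tested beyond what each setting changes. Low members are limited by unknown depth.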
